A study of Bos taurus with 8 samples.

Results

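The histone genes of the day-15 bovine conceptus were followed in a comparison of 4 control samples with 4 samples to which FGF2, LIF and IGF1 had been added (FLI). Members were chosen by gene name: every gene of the table whose name begins with H1-, H2A, H2B, H3-, H3C, H4- or H4C, and MACROH2A1 and MACROH2A2. This gave 51 of 15267 genes. Of these, 36 are clustered genes (a C and a number in the name), 5 are linker H1 genes and the other 10 were counted as variants. The classes were set by name alone.

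Each sample was a conceptus-half at the filamentous stage, after in vitro embryo development per the labels, and poly-A RNA was sequenced. The series concerns embryo survival and elongation following slow-rate freezing, but no label says which samples were frozen. Samples go by the ends of their titles, which are 10, 20, 3M and 4M in the control group and 20, 3M, 4M and 50 in the FLI group. No label ties samples to separate animals, so p-values measure only the spread between these samples. Levels are the authors' CPM (counts scaled to a common library total, with TMM scaling), and the libraries held 108851495 to 152570016 reads. Of 12 trophoblast markers 12 were in the table, with a summed level of 19478 to 38472 CPM in the controls and 23598 to 57753 CPM in FLI, so the defining markers of the labelled tissue were present. Hypoblast markers summed to 789 to 8378 CPM in the controls, highest in control 10, and to 1147 to 3071 CPM in FLI, and mesoderm markers to 22.2 to 105 and 25.3 to 41.9 CPM.

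Histones package DNA into nucleosomes. Clustered, replication-dependent histone genes are transcribed in S phase, and their mRNAs normally end in a stem-loop in place of a poly-A tail, which the stem-loop binding protein SLBP and the U7 small nuclear RNA help to form. Variant histones such as H3.3, H2A.Z and macroH2A are made throughout the cell cycle from polyadenylated, mostly spliced mRNAs and are placed in chromatin outside replication. Poly-A selection therefore keeps variant transcripts and removes most stem-loop transcripts, so the level of a clustered gene here is that of the part of its RNA that entered the library. Some clustered genes also give longer, polyadenylated transcripts.

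Variants made up most of the histone CPM, at 937 to 1239 CPM of a sum of 1030 to 1339 CPM. Linker H1 genes summed to 20.2 to 74.2 CPM and clustered genes to 29.1 to 52.4 CPM. All 51 genes together took 0.102 to 0.137% of the reads of a library. Clustered genes made up 2.65 to 3.91% of the summed histone CPM. Per kilobase of exon, clustered genes took 2.67 ± 0.625% (SD, n = 8) of H2A and 0.896 ± 0.345% of H3. In H2B and H4 the picture was the reverse: the clustered share was 98.7 ± 0.614% of H2B and 100% of H4, which has no other gene among the members. The 1 H2B gene counted as a variant by its name, H2BU1, was at 0.0532 to 0.218 CPM. The summed level per kilobase was 454 ± 57.0 for H2A, 390.4 ± 25.8 for H3, 25.8 ± 5.23 for H2B and 12.9 ± 5.74 for H4. The proteins of these 4 families enter the nucleosome in equal amounts.

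No histone gene passed the adjusted threshold of 0.05 in the comparison of FLI with control. Limma on log2(CPM + 0.5) tested the 14 members with at least 1 CPM in at least 4 samples and called 0 of them (smallest adjusted p = 0.97), and over the whole table it called 0.0% of 11897 genes. At an unadjusted p under 0.05 there was 1 member, H2BC15, against 2.84% of all tested genes (0.95% lower in FLI and 1.89% higher). An edgeR quasi-likelihood test on the whole reads recovered from the CPM, with no filter and so with all 51 members, called 0 as well (adjusted p from 0.899 to 0.995). It gave 2 members an unadjusted p under 0.05, H2BC15 and H1-4, against 4.1% of all genes. The authors' deposited table has an adjusted p under 0.05 for 0.21% of its genes and for 0 histone genes (smallest 0.42, for H2BC15).

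H2BC15, a clustered H2B gene (ENSBTAG00000031886), stood apart from the other clustered genes in level, in gene model and in its difference between the groups. It was at 27.1 CPM in control 10, 21.7 in control 20, 31.4 in control 3M and 24.0 in control 4M. In the FLI samples it was at 17.6 CPM in 20, 13.96 in 3M, 16.02 in 4M and 15.6 in 50. All 4 FLI samples lay below all 4 controls, as they did for 0.753% of all genes. Trophoblast markers had higher and most tested mesoderm markers lower mean log2 levels in FLI (median log2 differences of 0.97 and -1.002). Their part in the H2BC15 values was not tested. The log2 difference was -0.70 (SE 0.16, 95% confidence interval -1.05 to -0.34), with limma's adjusted p = 0.97 over 11897 genes. DESeq2 called it (log2 difference -0.74, adjusted p = 0.0211), as the 1 gene lower in FLI among its 9 calls, 0.0762% of the genes it tested. A likelihood ratio test with robust weights did not (adjusted p = 0.533), and called 0.185% of genes.

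The difference of H2BC15 stayed negative when each sample was left out in turn (-0.78 to -0.60 on the log2 scale, adjusted p 0.723 to 0.999). It was -0.54 when samples whose titles end in 0 were fitted alone, and -0.86 for titles that end in M. In ARS-UCD1.2 the gene lies on the minus strand of chromosome 23 at 30972348 to 30976581, and its model has 2 exons, of 496 bases at the 5′ end and 891 bases at the 3′ end, with 2847 bases between them. Its 1387 exon bases are the most of the 36 clustered genes, whose median is 393. Lengths of 30 of the 36 models are multiples of 3, so most of these models appear to hold coding sequence alone, and 19 have a single exon. No exon of another gene in the table overlaps those of H2BC15, but the spans of 4 other clustered genes do: those of H2BC14 (minus strand) and H2AC14 (plus strand) contain the whole gene, and those of H4C11 (minus strand) and H4C13 (plus strand) reach into it.

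**Figure D1:**
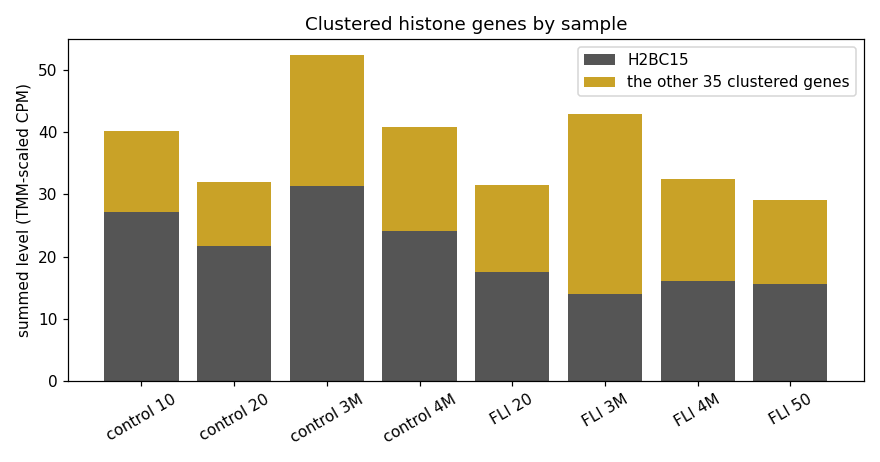
Summed level of the clustered histone genes (TMM-scaled CPM) in each sample, with the part from H2BC15 in grey and that from the other 35 genes in gold. H2BC15 was lower in every FLI sample (13.96 to 17.6 CPM) than in any control (21.7 to 31.4 CPM), and the part from the other genes was highest in FLI 3M at 29.0 CPM.

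H2BC15 carried 55.6 ± 11.3% (SD, n = 8) of the summed CPM of clustered genes. That share was 59.0 to 67.6% in the controls and 32.5 to 55.7% in FLI. The sum over all 36 genes was 41.4 ± 8.36 CPM in control and 34.1 ± 6.11 CPM in FLI (n = 4 each), and the groups overlapped. Without H2BC15 it was 13.1 CPM in control 10, 10.4 in control 20, 21.0 in control 3M and 16.7 in control 4M. In FLI the same sum was 14.01 CPM in 20, 29.0 in 3M, 16.5 in 4M and 13.5 in 50. FLI 3M was the high sample, and the other FLI samples lay inside the control range. The FLI mean of this sum was 2.97 CPM above the control mean with FLI 3M and 0.61 CPM below it without that sample (a difference of -0.61).

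Of the 35 clustered genes other than H2BC15, every value was under 3 CPM and 32 had a mean under 1 CPM. The smallest read count of a clustered gene in a sample was 2. Of these 35 genes, 4 were high enough to be tested by limma: H4C4, H4C13, H2BC12 and H2AC19. H4C4 and H4C13 are named as genes of histone H4, a protein that is invariant between its gene copies. Reads shared by near-identical copies could be split or dropped by the counting, so the level of a single copy is uncertain. The same holds for the other clustered genes.

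H4C4 (chromosome 23, 31774497 to 31775288) was at 1.07, 1.03, 1.72 and 0.659 CPM in control 10, 20, 3M and 4M and at 1.08, 2.80, 1.201 and 0.997 CPM in FLI 20, 3M, 4M and 50. FLI 3M was the high sample and the groups overlapped (log2 difference 0.28, SE 0.33, limma adjusted p = 0.97). H4C13 had the second highest level per kilobase of the clustered genes (3.28 CPM per kb, against 15.1 for H2BC15). Its lowest value was 0.755 CPM, in FLI 4M, and its highest 1.28 CPM, in control 4M (log2 difference -0.16, SE 0.20). The model of H4C13 has 306 exon bases in 4 exons, against 312 in 1 exon for H4C1 and H4C3. Its level per kilobase is therefore uncertain. H4C2 came next with 3.09 CPM per kb, on a model of 279 bases in 3 exons and with the same limit. Its control values were 0.258, 0.465, 1.72 and 0.576 CPM for 10, 20, 3M and 4M, and its FLI values 0.446, 1.58, 1.41 and 0.424 CPM for 20, 3M, 4M and 50, so that it was high in both 3M samples and in FLI 4M.

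H2BC12 was at 0.562 to 2.19 CPM in the controls and 0.918 to 1.82 CPM in FLI, a log2 difference of 0.07 (95% confidence interval -0.67 to 0.81). Its exon overlaps that of H4C9, on the opposite strand, by 2 bases. H2AC19, on chromosome 3, was highest in control 10 at 1.58 CPM and was at 0.848 CPM in FLI 3M, a log2 difference of -0.04 (95% confidence interval -0.71 to 0.63). The intervals of both genes are wide on either side of 0, so no difference was detectable for them.

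FLI 3M was the high sample for many clustered genes. It had the highest value of all 8 samples for 19 of the 36 genes (52.8%), against 10.8% of all genes in the table and 6.09% of 3398 other genes of the same range of mean level. FLI 3M exceeded 2 times the median of the other 7 samples for 21 of the 36 (58.3%), against 3.14% of all genes and 6.44% of those 3398. The ratio reached 10.3 for H4C1, whose FLI 3M value was 0.612 CPM and whose other values spanned 0.0150 to 0.298 CPM, and 5.81 for H4C8, at 1.22 CPM in FLI 3M and 0.149 to 0.343 CPM elsewhere. FLI 3M was below that median for 5 clustered genes, H2BC15, H2AC5P, H2AC19, H2AC18 and H2BC11, with ratios of 0.644 to 0.909, and H2BC15 had its lowest value there. H4C1 had 78 reads in FLI 3M and 2 to 40 in each other sample, and H2AC17 had 74 and 10 to 27. Without FLI 3M both would fall below 112 reads in total, the lowest of any gene in the table. Both are counted among the 19 and the 21 genes. These counts are descriptions chosen after the values were seen, the genes share libraries, and whether close copies share reads was not tested.

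**Figure D2:**
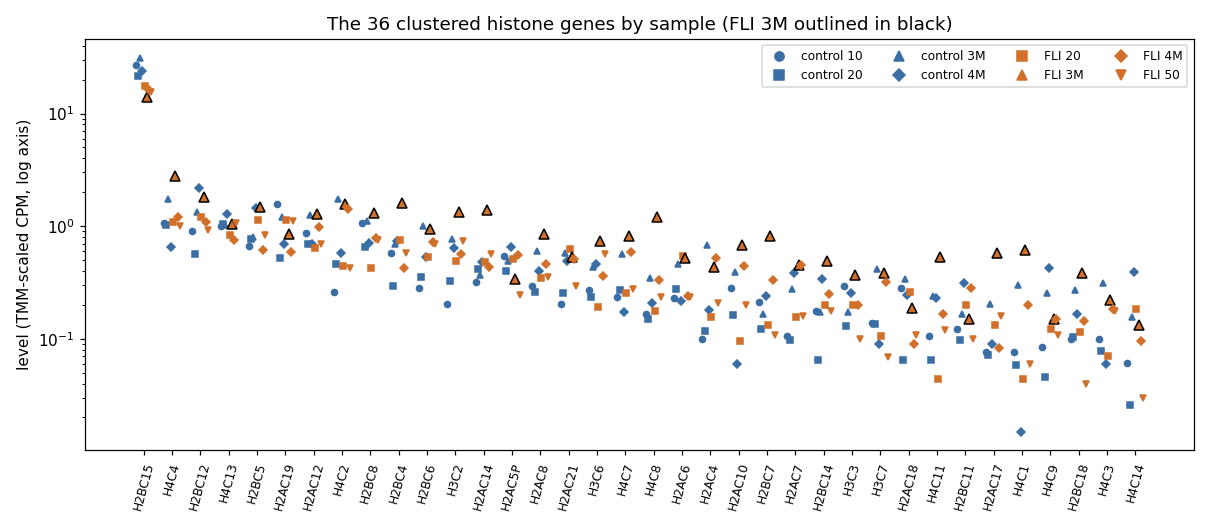
Level (TMM-scaled CPM, log axis) of each of the 36 clustered histone genes in the 8 samples, ordered by mean level, with controls in blue, FLI in orange and FLI 3M outlined in black. FLI 3M is the top point for 19 genes and the bottom point for H2BC15 alone.

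Among the controls, 3M or 4M held the highest value for 34 of the 36 clustered genes (94.4%), against 50.7% of all genes. The share was also high for the variants (9 of 10) and for loci named as snoRNAs (44 of 53), so it did not set the clustered genes apart. Control 3M alone held the highest control value for 21 clustered genes (58.3%), against 27.1% of all genes. For variants the share was 70%, for loci named as snoRNAs 49.1% and for linker H1 genes 20%. Control 10 or 20 was the lowest control for 28 of the 36 (77.8%, against 50.7% of all genes). That share was higher for variants (90%), linker H1 genes (80%) and loci named as snoRNAs (90.6%). A higher FLI mean was found for 28 of 36 clustered genes (77.8%, against 47.0% of all genes). The share was also above that of all genes for variants (70%), linker H1 genes (60%) and loci named as snoRNAs (67.9%). For 37 other loci of RNAs without a poly-A tail it was 70.3%. The median log2 difference of the clustered genes in the edgeR fit was 0.35, against -0.02 over all genes. Without FLI 3M, 19 of the 36 clustered genes had a higher FLI mean and 17 a lower one, so the direction of the clustered genes rests on that library.

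FLI 3M also stood apart in some other RNAs that carry no poly-A tail, and not in others. Of 37 such loci not named as snoRNAs, 15 had their highest value there (40.5%), and the median ratio of FLI 3M to the other samples was 1.71. They include 4 loci of U3 (ratios of 0.869 to 5.53) and 1 of U8 (2.25), which are snoRNAs under other names. RNase MRP RNA, which takes part in ribosomal RNA processing, was at 19.4 CPM in FLI 3M, 1.14 in FLI 20, 0.426 in FLI 4M and 1.31 in FLI 50, while controls spanned 0.277 to 0.621 CPM. RNase P RNA, which matures transfer RNA, was at 16.7 CPM in FLI 3M, 1.67 in FLI 20, 1.31 in FLI 50 and at most 0.743 CPM in the others. The 3 loci of the signal recognition particle RNA summed to 82.4 CPM in FLI 3M and to 1.61 to 6.70 CPM elsewhere. The 6 loci of U1, a spliceosomal RNA, summed to 21.9 CPM there and to at most 3.65 CPM elsewhere. The 13 loci of U6, another spliceosomal RNA, had ratios of 0.382 to 2.24, with 7 below 1. Of the 5 loci of 7SK, a regulator of transcription elongation, 3 were below 1 and the highest ratio was 44.4, and 1 U1 locus was at 0 in FLI 3M. The list was chosen by name, and summed over the 37 loci it stood at 172 CPM in FLI 3M and at 14.9 to 26.6 CPM in the other samples.

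The 53 loci named as snoRNAs, whose RNAs are cut from introns, did not share the pattern. Their sum was 104 CPM in FLI 3M, 178 CPM in FLI 20 and 63.8 to 129 CPM in the other samples. U7, the small nuclear RNA of histone mRNA processing, was at 0.518 CPM in FLI 3M and 0.296 to 0.813 CPM elsewhere. FLI 20 and FLI 50, next after FLI 3M in RNase MRP RNA, had 14.01 and 13.5 CPM of clustered histone RNA other than H2BC15, near control 10 at 13.1 CPM. Control 3M, second highest in clustered RNA at 21.0 CPM, had 0.395 CPM of RNase MRP RNA. The part of RNA without a poly-A tail in the FLI 3M values was not tested.

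**Figure D3:**
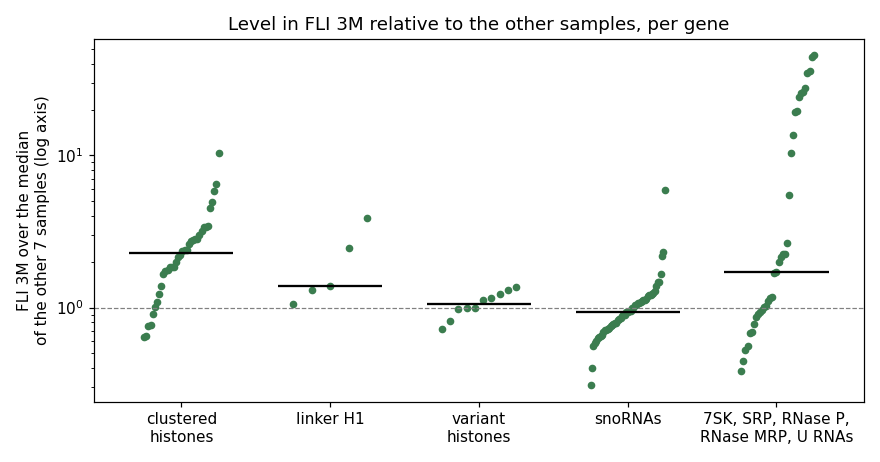
Level in FLI 3M divided by the median of the other 7 samples (log axis), per gene or locus, with black lines at the medians. The sets are the clustered, linker H1 and variant histones, loci named as snoRNAs, and the other RNAs without a poly-A tail, U3 and U8 included. The median was 2.29 for clustered histones and 1.06 for variants, and the last set reached 45.5. One U1 locus at 0 in FLI 3M is not drawn.

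Linker H1 proteins bind the DNA between nucleosomes. H1-10, the linker variant coded outside the clusters (chromosome 22), was by far the highest H1 gene, at 71.6 CPM per kb against at most 1.41 for the other 4. It was at 50.2, 60.9, 44.7 and 17.2 CPM in control 10, 20, 3M and 4M and at 52.2, 69.1, 50.4 and 24.6 CPM in FLI 20, 3M, 4M and 50. Control 4M and FLI 50 were the low samples, and the groups overlapped (log2 difference 0.23, SE 0.44, limma adjusted p = 0.973).

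H1-4, H1-2 and H1-12 lie inside the chromosome 23 cluster, although H1 names carry no C. H1-4 (chromosome 23, 31796098 to 31796757) was at 0.486, 0.343, 0.410 and 0.419 CPM in control 10, 20, 3M and 4M. In FLI 20, 3M, 4M and 50 it was at 0.620, 1.88, 0.879 and 0.582 CPM. All 4 FLI samples lay above all 4 controls, as they did for 0.852% of all genes, and FLI 3M was the high sample. Its level was too low for the limma test, and edgeR without a filter gave a log2 difference of 1.25 with an adjusted p of 0.899 (unadjusted p = 0.0226). H1-2 was at 0.297 to 1.34 CPM in the controls and 0.563 to 2.28 CPM in FLI, again highest in FLI 3M. H1-12 was at 0.481 to 1.12 CPM, and H1-7, on chromosome 5, at 0.0592 to 0.341 CPM.

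**Figure D4:**
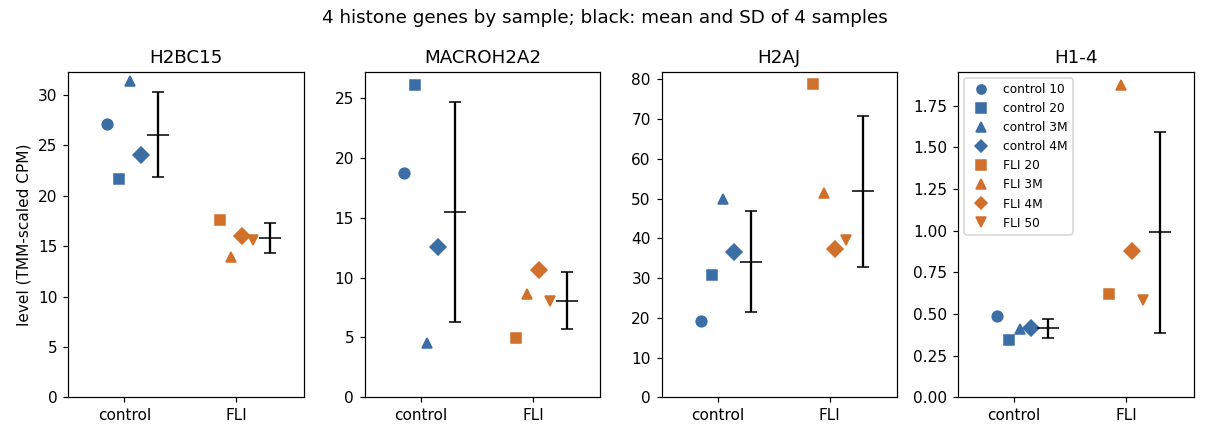
Levels (TMM-scaled CPM) of H2BC15, MACROH2A2, H2AJ and H1-4 in each sample, with the mean and SD of 4 samples in black. The groups do not overlap for H2BC15 (FLI lower) and H1-4 (FLI higher), whose FLI 3M value of 1.88 CPM is more than any other sample, and overlap for the other genes.

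H3.3, the replacement form of H3 that marks active and newly assembled chromatin, is coded by H3-3A and H3-3B, and these carried nearly all H3 reads. H3-3B (chromosome 19) was the highest histone gene per kilobase, at 288 CPM per kb against 98.0 for H3-3A (chromosome 16). H3-3B was at 416.5 to 543 CPM in the controls and 454 to 532 CPM in FLI. Its log2 difference was 0.06 (SE 0.12), with a 95% confidence interval of -0.22 to 0.34, and with library size as the only scaling it was -0.04. H3-3A was at 92.9 to 114 CPM in the controls and 75.4 to 126 CPM in FLI, where FLI 50 was the lowest and FLI 20 the highest of all samples (log2 difference -0.05, 95% confidence interval -0.43 to 0.32). H3-3B supplied 69.1 to 80.8% of the pair's level per kilobase. H3-5, an H3.3-like gene, was at 0.575 to 1.005 CPM.

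H2A.Z, the variant found at promoters and needed for early mammalian development, is coded by H2AZ1 and H2AZ2. H2AZ1 (chromosome 6) was at 224, 283, 332 and 276 CPM in control 10, 20, 3M and 4M and at 239, 270, 297 and 243 CPM in FLI 20, 3M, 4M and 50. The groups overlapped and the log2 difference was -0.08 (95% confidence interval -0.41 to 0.25). H2AZ2 (chromosome 4) was at 101.5 CPM in control 3M and 73.0 to 76.4 CPM in the other controls, and at 75.4 to 109 CPM in FLI (log2 difference 0.13, 95% confidence interval -0.23 to 0.49). H2AZ1 supplied 58.6 to 70.5% of the pair's level per kilobase, with the lowest share in FLI 20.

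H2AJ, an H2A variant close to the canonical protein and known from human cells to build up in senescence, had the smallest limma p of the variants (0.0978), while the edgeR fit, DESeq2 and the authors' deposited table gave MACROH2A2 a smaller one. It was at 19.3, 30.9, 49.97 and 36.5 CPM in control 10, 20, 3M and 4M. In FLI 20, 3M, 4M and 50 it was at 78.9, 51.3, 37.4 and 39.6 CPM. The means were 34.2 ± 12.7 and 51.8 ± 19.1 CPM and the groups overlapped, with control 10 lowest and FLI 20 highest. The log2 difference was 0.61 (SE 0.33, limma adjusted p = 0.97). It was 0.36 without control 10 and 0.39 without FLI 20. For samples whose titles end in M it was 0.04, and for titles that end in 0 it was 1.18.

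The macroH2A proteins carry a large additional domain and are linked to silent chromatin, such as the inactive X chromosome. MACROH2A1 (chromosome 7) was at 69.5 to 98.2 CPM in the controls and 78.8 to 88.5 CPM in FLI (log2 difference 0.07, 95% confidence interval -0.25 to 0.40). MACROH2A2 (chromosome 28, 26293095 to 26345874) varied more. It was at 18.7 CPM in control 10, 26.1 in control 20, 4.56 in control 3M and 12.5 in control 4M, and at 4.92 CPM in FLI 20, 8.67 in FLI 3M, 10.7 in FLI 4M and 8.08 in FLI 50. Control 20 was the highest and control 3M the lowest sample, so the groups overlapped. The log2 difference was -0.71 (SE 0.49, limma adjusted p = 0.97). Its exons share 10 bases with AIFM2 on the opposite strand.

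The difference of MACROH2A2 was -1.73 for samples whose titles end in 0 and 0.32 for titles that end in M. It was -0.38 without control 20 and -1.18 without control 3M. In the authors' deposited table its log2 fold change is -0.95 with an unadjusted p of 0.0287 (adjusted 0.786), and 3 histone genes there have an unadjusted p under 0.05, where 5.29% of all genes do. Of the epiblast and disc markers, POU5F1, a pluripotency factor, had its highest values in control 20 and control 10, as MACROH2A2 did: 23.01, 32.7, 4.798 and 13.3 CPM in control 10, 20, 3M and 4M and 1.42, 10.2, 17.4 and 1.01 CPM in FLI 20, 3M, 4M and 50. Of 8 epiblast and disc markers 7 were in the table. They summed to 265 to 618 CPM in the controls and 253 to 411 CPM in FLI. Mean log2 level in FLI was higher for 2 of them and lower for 5. TRIM71, an RNA-binding protein of early embryos and the marker of smallest limma p, went the other way from POU5F1, at 10.8 to 18.0 CPM in the controls and 17.8 to 24.7 CPM in FLI (log2 difference 0.51, SE 0.19, adjusted p = 0.97). Summed hypoblast and mesoderm markers were also highest in control 10 (8378 and 105 CPM) and control 20 (3770 and 57.5 CPM). The part of the epiblast or of these other cell types in the MACROH2A2 values was not tested. In such whole-tissue samples fewer cells of a type and less RNA per cell cannot be told apart.

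Markers of the other cell types were read in the same way, and 0 passed the adjusted threshold. All 12 trophoblast markers had a higher mean log2 level in FLI, with a median log2 difference of 0.97. Over all 11897 tested genes 6039 were higher and 5858 lower. PAG2, a pregnancy-associated glycoprotein, was at 183 to 675 CPM in the controls and 698 to 2519 CPM in FLI, without overlap, as for 0.852% of all genes (limma adjusted p = 0.97). TKDP1, a trophoblast protease inhibitor, was at 3446 to 17112 CPM and 6168 to 38724 CPM, with overlap. Of 4 tested mesoderm markers 3 had a lower mean log2 level in FLI (median -1.002). Among them PDGFRA, a growth factor receptor, was at 16.9 to 25.003 CPM in the controls and 4.55 to 21.7 CPM in FLI, and the transcription factor EOMES was highest in control 20 at 4.76 CPM and listed at 0 in FLI 20. Of 7 hypoblast markers 6 had a lower mean log2 level in FLI (median -0.20). The transcription factors SOX17 and HNF4A were at 13.9 to 53.9 and 17.2 to 129 CPM in the controls. In FLI they were at 15.8 to 24.5 and 23.8 to 44.2 CPM. Of 5 blood and leukocyte markers 1 was in the table, CD68, of macrophages, at 1.55 to 3.23 CPM over all samples. Of 5 endometrium markers 3 were in the table and 1 was tested, MUC1, a mucin of epithelia, at 10.9 to 51.5 CPM. The endometrium list summed to 11.6 to 53.4 CPM in the controls, nearly all of it from MUC1, so it does not show endometrial RNA. The part of these differences in the values of H2BC15 and MACROH2A2 was not tested.

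H2AW, an H2A gene outside the main clusters on chromosome 7, was at 1.002 to 4.70 CPM in the controls and 2.21 to 3.98 CPM in FLI. Its log2 difference was 0.24 (95% confidence interval -0.64 to 1.13), and it was -0.06 without control 20. The neighbouring H2BU1 was at 0.0532 to 0.218 CPM. Both genes were counted as variants by name alone, and whether they are made outside S phase was not tested.

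**Figure D5:**
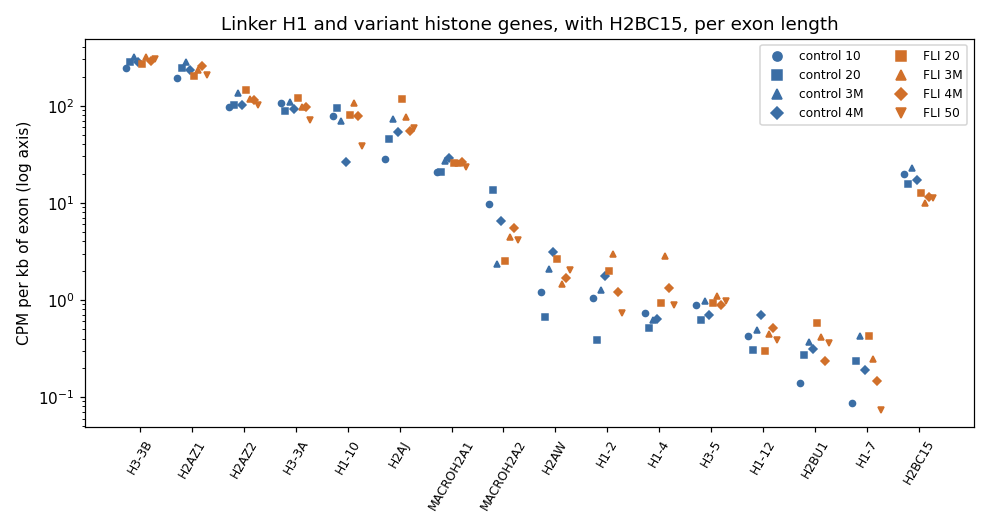
Level per kilobase of exon (log axis) of the linker H1 and variant histone genes, and of H2BC15 for comparison, in the 8 samples, with controls in blue and FLI in orange. H3-3B (288 CPM per kb on average) and H2AZ1 (231) lead, and H2BC15 (15.1) lies between MACROH2A1 (24.8) and MACROH2A2 (6.08).

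The genes that make, process and carry histones were read from lists chosen by function, and 0 of their members passed in either direction. Of 21 symbols of histone mRNA transcription and processing, 20 were in the table and tested. Mean log2 level in FLI was higher for 5 of them and lower for 15. Over all 11897 tested genes 6039 were higher and 5858 lower. The median log2 difference of the list was -0.05, against 0.00 over all tested genes. The smallest p was that of CSTF2, a cleavage stimulation factor, with a control mean of 77.4 ± 17.5 CPM and an FLI mean of 63.5 ± 14.9 CPM (n = 4 each). LSM11, a protein of the U7 particle, was at 2.65 ± 0.445 and 2.13 ± 0.287 CPM. The groups overlapped for both.

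Of 29 tested histone chaperones, which hand histones to DNA, 24 had a lower and 5 a higher mean log2 level in FLI (median -0.08). Of all 11897 tested genes 5858 were lower. DAXX, a chaperone that deposits H3.3, was at 85.8, 79.3, 80.9 and 74.0 CPM in control 10, 20, 3M and 4M and at 64.5, 61.6, 69.3 and 71.3 CPM in FLI 20, 3M, 4M and 50. All 4 FLI samples lay below all 4 controls, as they did for 0.605% of tested genes, with a log2 difference of -0.26 (SE 0.10, limma adjusted p = 0.97). RBBP4, a subunit of the CAF-1 chaperone, had means of 204 ± 33.6 CPM (control) and 171 ± 18.6 CPM (FLI), with overlapping groups.

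Clustered histones are made in S phase. Of 40 tested genes of S phase and DNA replication, 25 had a lower and 15 a higher mean log2 level in FLI (median -0.03). RRM2, a ribonucleotide reductase subunit, had means of 540 ± 75.3 CPM (control) and 395 ± 92.9 CPM (FLI) (log2 difference -0.47, SE 0.20, limma adjusted p = 0.97). CLSPN, a checkpoint protein of the fork, was at 81.9 ± 17.6 and 60.7 ± 12.6 CPM. The mean log2 level of this list was 6.09 in FLI 3M, inside the control range of 5.90 to 6.19. The part of S phase in the clustered gene values of FLI 3M was not tested. FLI 20 had the lowest value, 5.72.

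Mitosis and proliferation genes were split, with 7 higher and 9 lower of 16 (median -0.01), and BIRC5, an inhibitor of apoptosis of dividing cells, was at 127 ± 14.8 and 143 ± 7.88 CPM. CENPF, a kinetochore protein, was at 114 ± 15.0 and 133 ± 23.1 CPM. Of 11 tested cell cycle inhibitors and exit genes 9 had a higher mean log2 level in FLI (median 0.11). CDKN1C, an imprinted CDK inhibitor, varied from 1.98 CPM in control 4M to 67.1 CPM in FLI 20, and CDKN1B was at 22.6 ± 6.15 and 27.2 ± 4.17 CPM. Of 6 other tested nucleosome proteins 4 had a lower mean log2 level in FLI. Among them was HMGA2, a DNA-bending protein of embryonic cells, at 2.59 ± 1.23 and 1.34 ± 1.76 CPM. HMGN1, which binds nucleosomes, was at 255 ± 14.7 and 293 ± 72.9 CPM, with its highest value, 401 CPM, in FLI 20.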

How the data were processed

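Poly-A RNA of 8 samples was sequenced from stranded libraries, per the labels' protocols. Per the submitters' processing notes, reads were handled with HISAT2, featureCounts, FastQC and edgeR on ARS-UCD1.2. Versions, the strand setting and how reads with several positions were counted are not stated in any source at hand. The deposited signal of each sample is a CPM with TMM scaling: 100% of values were whole multiples of 1 read within 0.001. For the authors' own comparison the deposited table holds log2 values, a likelihood ratio score and p-values, per the file headers. The lowest gene total was 112 reads, so the deposited table holds no gene below that.

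The main test was limma 3.58.1 (eBayes with trend) on log2(value + 0.5) for 11897 genes with at least 1 in at least 4 samples, two-sided, with Benjamini-Hochberg adjustment over all of them. Recovered reads were tested with edgeR 4.0.16 and DESeq2 1.42.0 in R 4.3.3, and the scripts were tested on simulated data. Levels were divided by exon length (CPM per kb) to compare genes. Genes named were, in the clustered class and in the others, the 4 of smallest p and the 4 of highest level per kilobase, any called in a fit on all samples, and 2 of smallest p per list of genes (1 where 1 was tested; the RNAs without a poly-A tail were given by kind); others were named after their values were seen. Members, lists and tests were chosen with earlier results of these data known. H2AC5P, whose final P is a pseudogene mark, was counted as clustered. Gene names come from the deposited table.

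The numbers 20, 3M and 4M occur in titles of both groups. Pairs of equal number deviated together (r = 0.133, 0.351 and 0.359 across genes, each over 0.1), and a block for the number was an alternative on 6 samples. No label gives a pairing. Samples of unlike number but the same last title character also deviated together, with r from 0.155 (control 20 and FLI 50) to 0.312 (control 3M and FLI 4M). A pairing by number and a likeness by title ending therefore cannot be told apart. Other alternatives were the pseudocount, the filter, the scaling, each title ending alone and each sample left out. No sequences were used here.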

Additional observations from a re-analysis of the deposited data

Results flagged for a closer look

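In 11 of 114 groups of 4 samples (51 genes and 6 sums, in control and in FLI), the highest or lowest sample stood off from the rest. The mark was a gap over range above Dixon's 95% critical value, which flags about 1 in 20 groups of independent, normal values by chance. These genes share libraries, the sums contain the same genes and many genes had few reads. The 11 groups therefore cannot be set against that rate. FLI 3M was the high FLI sample for H2AC14 (1.38 CPM, others at most 0.563, gap over range 0.863), H2AC17 (0.581, others at most 0.158, 0.848), H4C4 (2.80, others at most 1.201, 0.887) and H4C8 (1.22, others at most 0.33, 0.851). Control 3M was the high control for H2AC17 (0.201 CPM, others at most 0.0898, gap over range 0.857), H2AC4 (0.687, others at most 0.180, 0.862), H3C7 (0.418, others at most 0.137, 0.857), H4C3 (0.313, others at most 0.0988, 0.847) and H2AZ2 (101.5, others at most 76.4, 0.88). Control 4M was the high control for H4C13 (1.28 CPM, others at most 1.04, 0.84), and FLI 50 the low FLI sample for MACROH2A1 (78.8 CPM, others at least 87.4, 0.885). Without FLI 3M, H2AC17 would fall below 112 reads in total, the lowest of any gene in the table. No explanation was tested for these samples.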

How the results depend on the processing

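Limits come first. Clustered genes other than H2BC15 were under 3 CPM, so 31 of 36 were not tested by limma, and near-identical copies may share reads. With 4 samples a group, intervals of single genes were wide. DESeq2 called 9 genes and the robust likelihood ratio test 22, against 0 by limma. DESeq2 called 1 clustered gene, H2BC15. For the other named genes no alternative changed a call.

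The median log2 difference of tested clustered genes, -0.04, was -0.70 with a filter of 5 in 4 samples, which left 1 gene, and -0.23 for titles ending in M. Without division by exon length, clustered shares were 1.05% of H2A, 99.5% of H2B and 0.242% of H3. In the fit with the replicate block on 6 samples H2BC15 had a log2 difference of -0.67 (adjusted p = 0.695). Under this block H2AC19 (0.073), H3-3A (0.12) and H3-3B (-0.015) changed sign, and the block changed no call. H3-3B was also negative with library size alone (-0.038). For titles ending in M, H2AW (-0.60), H2AZ2 (-0.018), H2BC12 (-0.20) and MACROH2A2 (0.32) changed sign. For titles ending in 0, H2AC19 (0.16) and H4C4 (-0.0092) did. With 1 sample left out, H2AC19 ranged from -0.20 to 0.14, H2AW from -0.065 to 0.53, H2AZ1 from -0.18 to 0.0088, H2BC12 from -0.14 to 0.31, H3-3A from -0.16 to 0.081 and H3-3B from -0.00017 to 0.13. The cause was not tested for any of these.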
